A study of Homo sapiens with 6 samples.

Results

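The gene of oestrogen receptor alpha and 9 oestrogen-linked or luminal genes were measured in MCF10A cells that received a miR-221/222 mimic. The 10 genes were chosen by name, as ESR1, PGR, GREB1, CA12, RERG, MYB, GATA3, FOXA1, AGR2 and MLPH, and every probe set annotated to one of them was taken. They were measured by 33 of 54613 probe sets, and they are 10 of 19775 genes with a named probe set. MCF10A is a human cell line of mammary epithelium that does not form tumours and has basal features, and it is usually described as lacking oestrogen receptor alpha. The mimic group was transfected with miR-221/222 and the control group with a control microRNA named miR-control. The labels describe 3 biological replicates of each group. Total RNA of each replicate was hybridised to 1 single-colour Affymetrix array, so there were 6 arrays. The dose, the time after transfection, the culture medium and any oestrogen in it are not stated in the labels.

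Oestrogen receptor alpha is a transcription factor that binds DNA once oestrogen has bound to it. In luminal mammary cells it acts together with FOXA1, which opens chromatin, and GATA3, which helps to set the luminal fate, and it switches on genes such as PGR and GREB1. ESR1 is among the reported targets of miR-221 and miR-222, which are clustered microRNAs of the X chromosome.

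The mature sequences are shown because the shared seed, bases 2 to 8 in capitals, is the part of a microRNA that does most of the pairing with messenger RNA. The labels do not say which arm the mimic carried; the 3p arms are those the names miR-221 and miR-222 usually stand for. Both are from RefSeq (GRCh38.p14, chromosome X, minus strand, 45746180 to 45746202 for miR-221-3p and 45747036 to 45747056 for miR-222-3p).
hsa-miR-221-3p: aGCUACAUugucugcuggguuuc
hsa-miR-222-3p: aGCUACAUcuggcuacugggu
The 2 seeds are the same 7 bases, GCUACAU, and the sequences differ after them.

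Values are log2 intensities per probe set, normalized by the authors with RMA, so a difference of 1 is a 2-fold change. RMA makes the arrays' distributions alike and compresses differences between dim values. Array medians lay between 7.59 and 7.66, and replicate arrays had pairwise correlations from 0.995 to 0.998 over all probe sets, which are not independent replicates. The control probe sets for the 2 ends of ACTB transcripts differed by 0.33 to 0.39 (3′ minus 5′, log2) in the mimic arrays and by 0.29 to 0.36 in the control arrays. For GAPDH they differed by 0.02 to 0.04 in the mimic arrays and by -0.05 to 0.02 in the control arrays. The number of arrays limits the precision. In bulk RNA, fewer cells of a type and less RNA per cell cannot be told apart.

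The comparison asked which of these genes respond to the mimic, relative to the control microRNA. GREB1, CA12 and MLPH rose, RERG, GATA3, FOXA1 and MYB fell, and ESR1, PGR and AGR2 did not pass the test, with each gene read at the probe set that was brightest on average over the 6 arrays. By limma with Benjamini-Hochberg adjustment over all probe sets, 3 of the 10 genes thus rose and 4 fell at an adjusted p under 0.05. Of all genes, 14.1% rose and 16.3% fell, 30.4% in all. Which direction held more genes over the whole table depended on the setting, with 3418 higher and 3027 lower when the arrays were quantile-normalized once more, and 3905 higher and 3715 lower under array weights, against 2780 and 3233 as reported. RERG, GREB1 and CA12 changed at least 2-fold, which 3.05% of all genes did. The 10 genes were listed with earlier results of these data known, so their share says nothing about luminal genes in general. The values of the 2 groups did not overlap for 8 of the 10 genes, against 45.6% of all genes. The median log2 difference of the 10 genes was 0.08, and that of all genes was 0.03. Ignoring direction, the median size of the difference was 0.46 for the 10 genes and 0.12 for all genes.

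**Figure D1:**
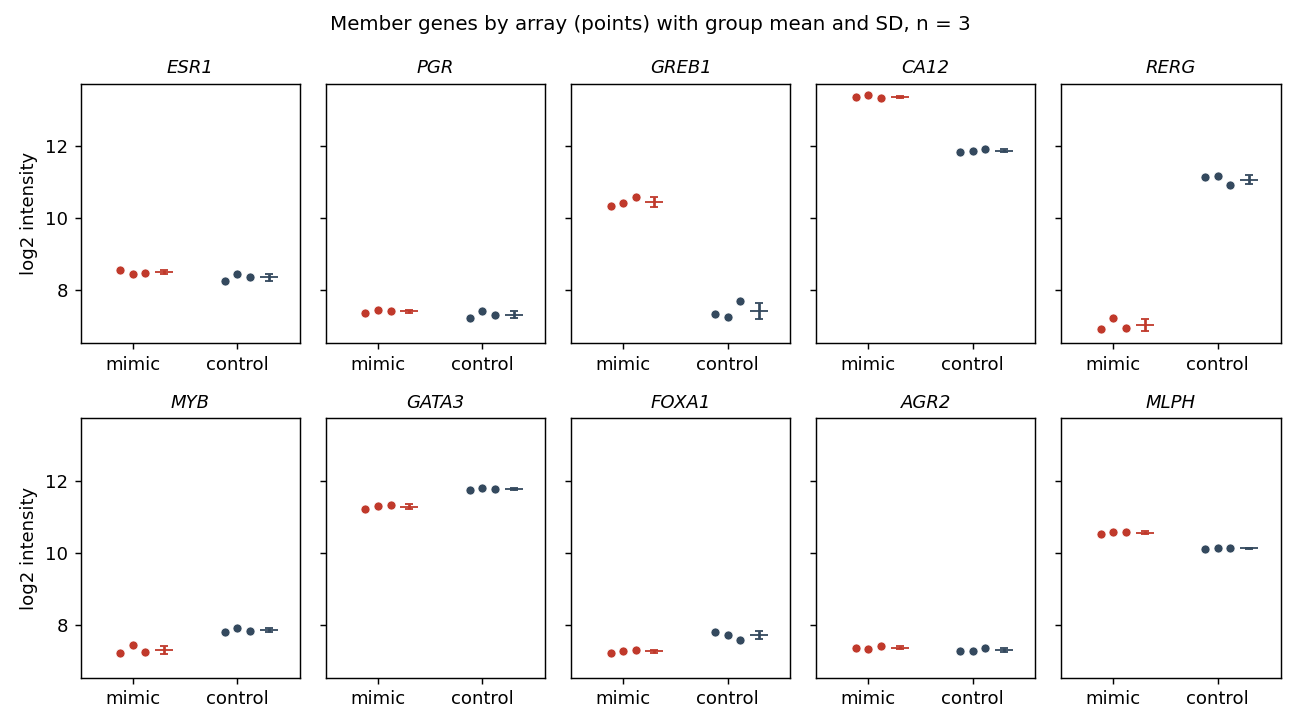
Log2 intensity (y axis) of each of the 10 genes at the probe set used, with 1 point per array, mimic arrays left of control arrays, and the group mean ± SD beside the points (n = 3 each). The groups lie far apart for GREB1, CA12 and RERG, and heights are not comparable between genes because probes differ in brightness.

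ESR1, the receptor gene itself, was measured by 9 probe sets. At the probe set used, the mimic arrays had 8.56, 8.45 and 8.47 and the control arrays 8.25, 8.45 and 8.36 (log2). The lowest mimic array lay just above the highest control array. The log2 difference was 0.14 ± 0.07 (SE), with a 95% interval from -0.01 to 0.30, and it did not pass (limma adjusted p = 0.178). Averaged over all its probe sets, the ESR1 difference was -0.01 (limma adjusted p = 0.873). The suffix of the probe set used, x_at, marks probes that can bind several transcripts, and 4 of the 9 carry it.

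One ESR1 probe set fell. Probe set 205225_at, which is widely used to read ESR1 in breast tumours, had 6.17, 6.33 and 6.37 in the mimic arrays and 6.75, 6.62 and 6.69 in the control arrays. All mimic arrays lay below all control arrays. Its log2 difference was -0.40 ± 0.07 (SE; limma adjusted p = 0.00172). The other ESR1 probe sets had differences from -0.16 to 0.17, and 0 of these 8 passed the test in limma, at an unadjusted p under 0.05 also 0. The mean signal of 205225_at was above that of 25.2% of all probe sets, and no detection calls were used, so whether it reports ESR1 transcripts above background is not known.

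PGR, the progesterone receptor gene and a textbook target of oestrogen receptor alpha, did not pass on either of its 2 probe sets. At the one used, the mimic arrays had 7.37, 7.44 and 7.42 and the control arrays 7.22, 7.40 and 7.32, and the groups overlapped. The log2 difference was 0.10 ± 0.07 (SE), with a 95% interval from -0.05 to 0.25. The second probe set had a difference of 0.13 and a mean signal above 6.90% of all probe sets.

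GREB1, an oestrogen-induced gene whose product binds the receptor, rose. The mimic arrays had 10.33, 10.41 and 10.58, against 7.33, 7.26 and 7.69 in the control arrays. Every mimic array lay more than 2 units above every control array. The log2 difference was 3.02, with a 95% interval from 2.78 to 3.26, which is 8.10-fold higher (limma adjusted p = 1.05e-08). Counted from the highest, this was rank 4 among the differences of all 19775 genes. The control mean of 7.42 lay below every array median. No detection calls were used, so whether GREB1 was above background in the control arrays is not known. The other 2 GREB1 probe sets had differences of 0.08 and 0.01 and did not pass. In them the mimic arrays had 7.44, 7.26 and 7.22 for one and 5.41, 5.50 and 5.37 for the other, against 7.17, 7.31 and 7.19 and 5.38, 5.47 and 5.39 in the control arrays. Averaged over all 3 probe sets the GREB1 difference was 1.04 (limma adjusted p = 4.6e-08), so its size rests on 1 probe set.

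CA12 encodes a carbonic anhydrase on the cell surface that is induced by oestrogen in breast cancer cells. It rose on all 7 of its probe sets. At the one used, the mimic arrays had 13.35, 13.40 and 13.33 and the control arrays 11.82, 11.86 and 11.90. No mimic array came within 1 unit of a control array. The log2 difference was 1.501 ± 0.060 (SE), 2.83-fold higher (limma adjusted p = 2.1e-08). The 7 differences ran from 0.39 to 1.91. The 5 bright probe sets, with signals above 97.4% or more of all probe sets, had differences of 1.46 to 1.91. The 2 dim ones had 0.46 and 0.39, with limma adjusted p-values of 0.00115 and 0.00214.

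RERG encodes a small Ras-like GTPase that slows growth and was named for its regulation by oestrogen. It fell on both of its probe sets. The mimic arrays had 6.92, 7.22 and 6.93 at the probe set used, against 11.13, 11.16 and 10.91 in the control arrays. All mimic arrays lay more than 3 units below all control arrays. The log2 difference was -4.04, with a 95% interval from -4.25 to -3.83 (limma adjusted p = 8.05e-10), and only 1 of all genes had a lower difference. The second probe set gave 6.01, 5.72 and 5.78 in the mimic arrays and 9.71, 9.65 and 9.54 in the control arrays. Its difference was -3.80 ± 0.08 (SE; limma adjusted p = 6.04e-10). The RERG difference thus had the same sign and nearly the same size on both probe sets, opposite to that of GREB1. The 2 probe sets averaged 7.02 and 5.83 in the mimic arrays, and whether these values lie above background is not known.

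**Figure D2:**
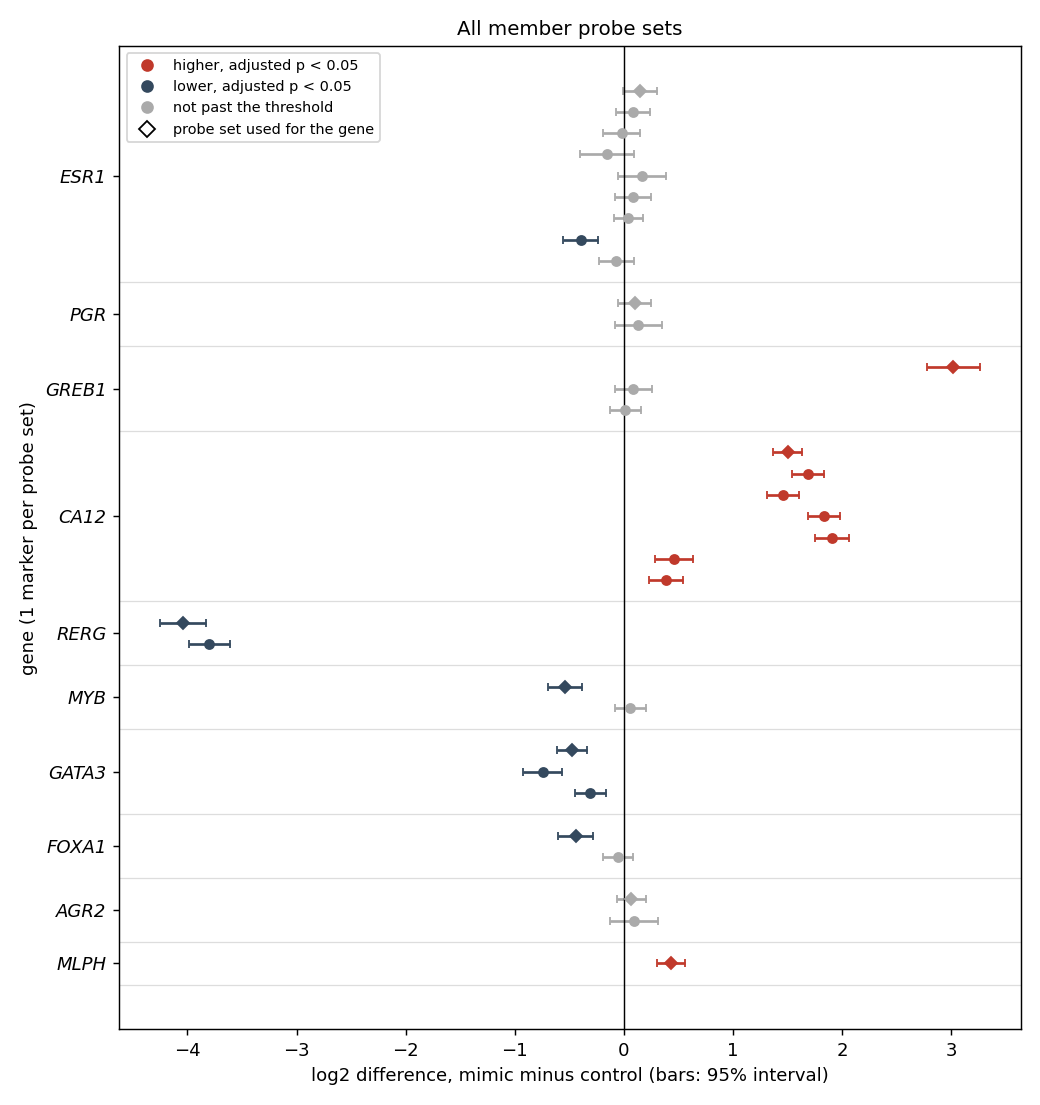
Log2 difference, mimic minus control (x axis), with its 95% interval for each of the 33 probe sets, grouped by gene down the page and ordered within a gene from the brightest to the dimmest; diamonds mark the probe set used. All 7 CA12 probe sets lie right of 0 and both RERG probe sets near -4, while GREB1 has 1 probe set at 3.02 and 2 near 0.

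GATA3, FOXA1 and MYB encode transcription factors of luminal or progenitor cells, and their differences were smaller. GATA3 fell on all 3 of its probe sets. The mimic arrays had 11.21, 11.31 and 11.33 at the probe set used and the control arrays 11.74, 11.79 and 11.76, without overlap. The difference was -0.48 ± 0.06 (SE; limma adjusted p = 0.00017), and the other 2 probe sets had -0.75 and -0.31. Only the last of these lacks the suffix s_at, and read there alone GATA3 differed by -0.31 (limma adjusted p = 0.00455).

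FOXA1, the pioneer factor of the receptor, fell on 1 of 2 probe sets. There the mimic arrays had 7.21, 7.27 and 7.31 and the control arrays 7.81, 7.73 and 7.58, without overlap. The log2 difference was -0.44 ± 0.07 (SE; limma adjusted p = 0.000798). The second had a difference of -0.06 and a mean signal above only 4.78% of all probe sets. Averaged over both probe sets the FOXA1 difference was -0.25 (limma adjusted p = 0.00394).

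MYB, a regulator of progenitor cells that is also expressed in receptor-positive breast tumours, likewise fell on 1 of 2 probe sets. The mimic arrays had 7.23, 7.43 and 7.26 and the control arrays 7.79, 7.91 and 7.84. Each mimic array lay below each control array. The difference was -0.54 ± 0.07 (SE; limma adjusted p = 0.0002), and that of the second MYB probe set was 0.06. The second MYB probe set had a mean signal above only 2.43% of all probe sets, and averaged over both the MYB difference was -0.24 (limma adjusted p = 0.0033).

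AGR2 and MLPH are genes of luminal and secretory cells. AGR2, a protein disulphide isomerase of the endoplasmic reticulum, did not pass on either probe set. At the one used it had 7.36, 7.33 and 7.40 in the mimic arrays and 7.26, 7.28 and 7.35 in the control arrays, and the groups overlapped. The AGR2 difference was 0.07 ± 0.06 (SE), with a 95% interval from -0.07 to 0.20. MLPH encodes melanophilin, which links the vesicle GTPase RAB27A to a myosin motor, and it was measured by 1 probe set. Its mimic arrays had 10.51, 10.58 and 10.57 and its control arrays 10.11, 10.14 and 10.13, without overlap. MLPH rose by 0.43 ± 0.06 on the log2 scale (SE; limma adjusted p = 0.000233), a 1.35-fold change.

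Counted by probe set, 9 of the 33 rose and 8 fell, where 11.6% of all probe sets rose and 13.1% fell, 24.8% in all. The groups did not overlap for 18 of the 33 probe sets, 10 with the mimic arrays above and 8 with them below, against 39.2% of all probe sets. Signal and calls moved together. Of the 14 member probe sets below the median signal of all probe sets, 3 were called, and of the 19 at or above it, 14 were. Over the whole table, 11.1% of the probe sets below the median signal and 38.4% of the others were called. The 3 called below the median were 205225_at of ESR1 and the probe sets used for FOXA1 and MYB. A large change itself moves a mean over both groups. GREB1 averaged 7.42 in the control arrays and the RERG probe sets 7.02 and 5.83 in the mimic arrays, yet they counted as at or above the median. FOXA1 and MYB averaged 7.71 and 7.84 in the control arrays and counted as below. How much of the link between signal and calls comes from the differences themselves was not tested. The part of low signal in the values of PGR, AGR2 and the ESR1 probe sets below the median signal was not tested.

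**Figure D3:**
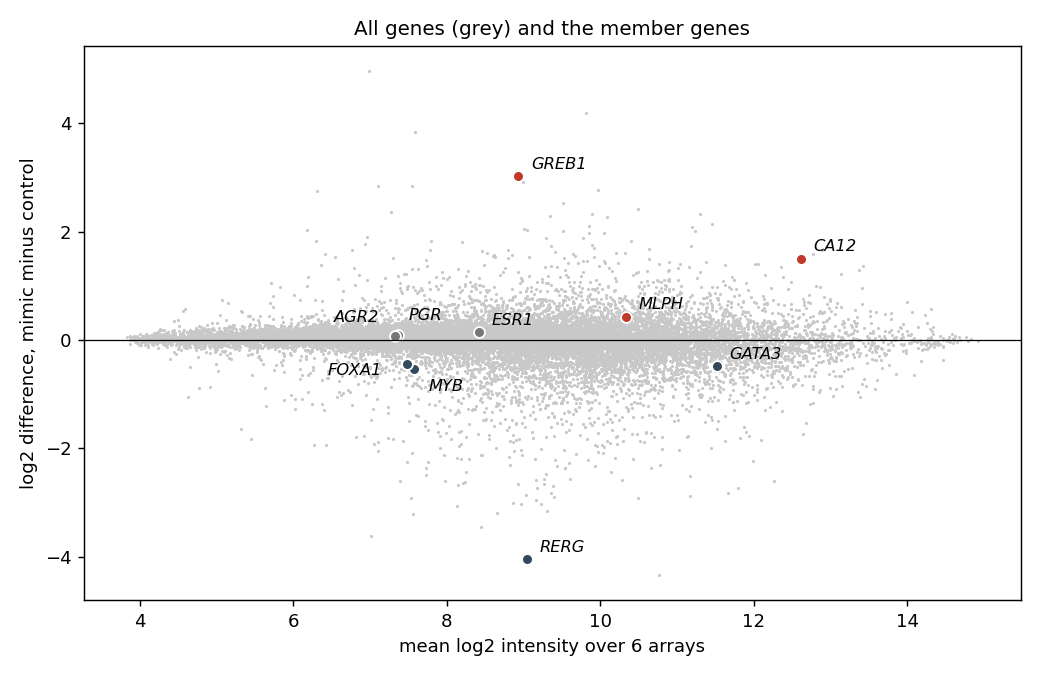
Mean log2 intensity over the 6 arrays (x axis) against the log2 difference, mimic minus control (y axis), for all 19775 genes in grey and the 10 member genes as coloured points (red rose, blue fell, dark grey did not pass). GREB1 at 3.02 and RERG at -4.04 lie at the upper and lower edges of the cloud, and PGR, AGR2 and ESR1 lie near 0.

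Promoters of the members were searched for letters of the receptor and its partners in RefSeq windows of 300 bases (250 before to 50 after the start, GRCh38.p14). The table held 21 windows for 8 of the genes; GREB1 and RERG were not among them. The full oestrogen response element GGTCANNNTGACC was in 0 of the 21 windows and in 0.0575% of 34796 windows of all genes, both strands searched. Its half-site GGTCA was in 7 of the 21, in windows of ESR1, PGR, CA12 and GATA3, against 37.3% of all windows; the 2 PGR windows overlap and share 1 match. A forkhead motif, TGTTTAC, was in 1 window (MYB), against 3.42% of all, and a GATA motif, AGATAA, in 1 (AGR2), against 10.4%. The half-site is part of the full element; these matches describe letters only. The 250 bases before the start are shown for CA12, which rose on all its probe sets, and for MYB, which fell, with the half-site and the forkhead match in capitals.
CA12 (chr15:63381847-63382096, minus strand): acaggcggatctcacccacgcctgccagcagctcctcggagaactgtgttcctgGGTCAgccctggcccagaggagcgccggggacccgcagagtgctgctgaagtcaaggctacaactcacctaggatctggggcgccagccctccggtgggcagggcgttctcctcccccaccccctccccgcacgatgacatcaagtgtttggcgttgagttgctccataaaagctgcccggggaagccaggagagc
MYB (chr6:135181058-135181307, plus strand): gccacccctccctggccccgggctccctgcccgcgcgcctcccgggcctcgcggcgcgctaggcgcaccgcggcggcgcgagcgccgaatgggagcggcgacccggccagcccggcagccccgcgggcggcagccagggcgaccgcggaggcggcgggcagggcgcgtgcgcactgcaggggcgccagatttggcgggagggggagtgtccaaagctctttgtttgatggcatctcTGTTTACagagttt

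Other genes induced by oestrogen, mostly as known from receptor-positive breast cancer cells, moved both ways. Of 32 measured, 9 rose and 9 fell, where 14.1% of all genes rose and 16.3% fell. The list had a median log2 difference of 0.05, against 0.03 for all genes. IRS1, an adaptor of the insulin and IGF1 receptors, averaged 11.22 ± 0.09 with the mimic and 10.15 ± 0.05 with the control (mean ± SD, n = 3 each), and it rose on all 3 of its probe sets. MYC, a growth-promoting transcription factor, averaged 10.92 ± 0.06 with the mimic and 12.33 ± 0.11 with the control (mean ± SD, n = 3 each). TPD52L1 fell by 1.13 ± 0.07 on the log2 scale (SE), and TGFA, a ligand of the EGF receptor, fell by 0.84 ± 0.07 (SE), or by 0.55 when its probe sets were averaged. The limma adjusted p-values of these 4 genes were at most 8.18e-06, that of TGFA.

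Among 20 measured relatives and coregulators of the receptor, 4 rose and 6 fell, against 14.1% and 16.3% of all genes. The median difference of the 20 was -0.08. NCOA2, a coactivator of nuclear receptors, rose by 0.78 ± 0.09 (log2, SE) and on 3 of its 4 probe sets. NRIP1 and LCOR, which hold back ligand-bound receptors, rose by 0.76 ± 0.10 and 0.69 ± 0.08 (log2, SE). NRIP1 is also in the list of oestrogen-induced genes, and other lists overlap too. XBP1 and KRT19 are both oestrogen-induced and luminal list genes. ESR2, ESRRA, ESRRB and ESRRG are also among the family relatives below, as are MYBL1 of the oestrogen-induced and AGR3 of the luminal list. The rises of NRIP1, XBP1 and ESRRA are thus each counted in 2 lists. PRMT1, an arginine methyltransferase, fell by 0.80 ± 0.07 (log2, SE) on 1 of its 2 probe sets. Its other one had -0.02 (limma adjusted p = 0.885), and without probe sets of the suffixes x_at and s_at 3 genes of this list fell. ESR2, the gene of the beta receptor, had a difference of -0.07 ± 0.07 (log2, SE) and did not pass (limma adjusted p = 0.543).

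Of 30 other genes of luminal identity, 2 rose and 12 fell, against 14.1% and 16.3% of all genes. The median difference of the 30 was -0.04. NAT1, an arylamine acetyltransferase, rose to 11.12 ± 0.04 with the mimic, against 9.52 ± 0.01 with the control (mean ± SD, n = 3 each). The other that rose was XBP1, a transcription factor of secretory cells, by 0.26 ± 0.07 (log2, SE; limma adjusted p = 0.018). XBP1 no longer passed without mimic replicate 2 (adjusted p = 0.0749), without mimic replicate 3 (0.0564), without control replicate 2 (0.063), without control replicate 3 (0.0603) and with its probe sets averaged (0.522). EPCAM, an adhesion protein of epithelial cells, fell by 1.54 ± 0.06 (log2, SE). The receptor gene ERBB3 averaged 9.87 ± 0.11 with the mimic and 10.88 ± 0.01 with the control (mean ± SD, n = 3 each), and it fell on 3 of its 5 probe sets. Averaged over the 5, the ERBB3 difference was -0.43 on the log2 scale. KRT18, a luminal keratin, fell by 0.996 ± 0.075 (log2, SE). Without probe sets of the suffixes x_at and s_at, 6 luminal genes fell. KRT8, KRT18 and EPCAM, each measured by 1 probe set of such a suffix, had no value there. Other luminal genes read at such a suffix differed between probe sets. KRT7 fell on 2 of 4, ERBB2 on 2 of 3, MUC1 on 2 of 3 and TBX3 on 2 of 7, with 1 TBX3 probe set higher. CD24 fell on all 6 and LRBA on both of its probe sets.

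Basal identity genes are markers of the outer layer of the mammary epithelium. Of 20 measured, 9 fell and 5 rose, against 16.3% and 14.1% of all genes. The median difference of the 20 was -0.03. The basal keratin genes KRT14 and KRT5 averaged 10.88 ± 0.07 and 11.78 ± 0.13 with the mimic, against 13.11 ± 0.07 and 13.50 ± 0.04 with the control (mean ± SD, n = 3 each). DSG3 and DSC3, cadherins of desmosomes, fell by 1.85 ± 0.06 and 1.80 ± 0.08 (log2, SE). The 5 that rose were SNAI2, a transcription factor that represses epithelial genes, VIM, an intermediate filament of mesenchymal and basal cells, CAV1, a coat protein of caveolae, LAMB3, a laminin chain of the basement membrane, and MME, a surface peptidase. SNAI2 rose by 0.94 ± 0.06 and VIM by 0.70 ± 0.06 (log2, SE), and CAV1, LAMB3 and MME rose by 0.51, 0.46 and 0.29. Without probe sets of the suffixes x_at and s_at, 3 basal genes rose. Each of the 5 rose on every probe set it had, so the fewer calls there come from genes left without a probe set. Whether the luminal and the basal list differ from each other was not tested.

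Of 41 measured family relatives of the members, 5 rose and 10 fell, against 14.1% and 16.3% of all genes. The median difference of the 41 was 0.001. TXNDC12, of the same disulphide isomerase family as AGR2, fell by 1.38 ± 0.08 (log2, SE). TRPS1, a repressor with a GATA-type zinc finger and a reported target of miR-221 and miR-222, averaged 9.78 ± 0.20 with the mimic and 11.04 ± 0.05 with the control (mean ± SD, n = 3 each). GATA6, a relative of GATA3, fell by 0.93 ± 0.12 (log2, SE) on 1 of its 2 probe sets, and by 0.45 with both averaged. NR3C2, the mineralocorticoid receptor gene and a relative of PGR, averaged 7.76 ± 0.30 with the mimic and 6.62 ± 0.17 with the control (mean ± SD, n = 3 each). Without mimic replicate 2, or without control replicate 1, 3 of the family genes rose. Without probe sets of the suffixes x_at and s_at, 6 fell.

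**Figure D4:**
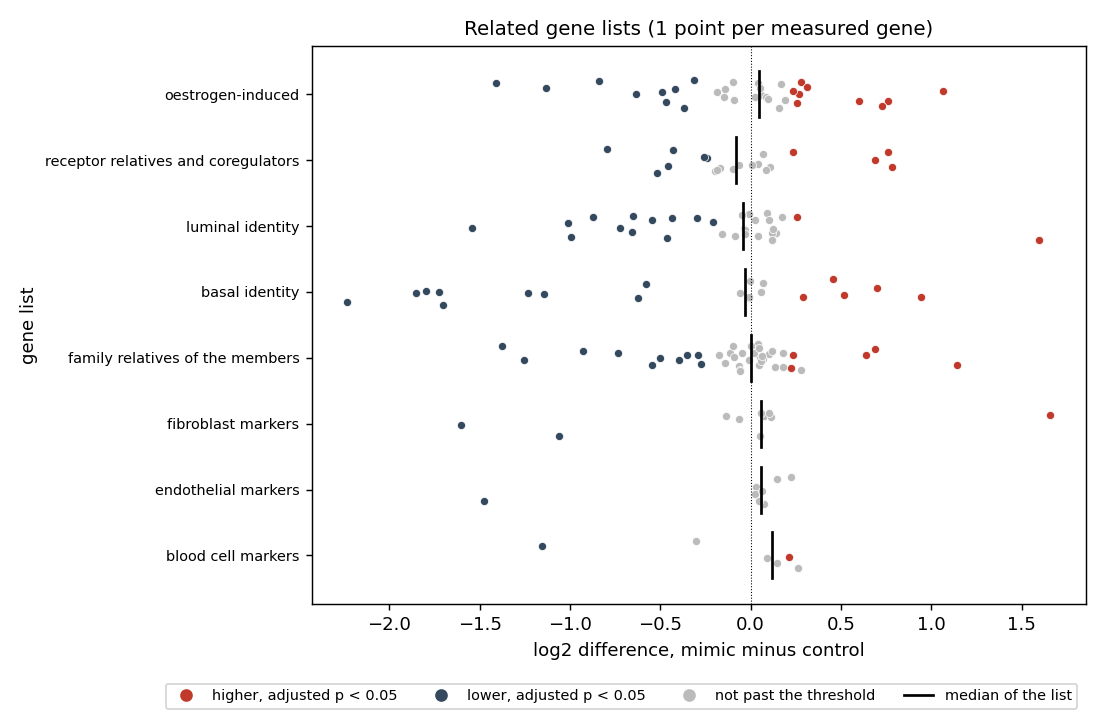
Log2 difference, mimic minus control (x axis), of every measured gene of 8 lists (rows), with red for genes that rose, blue for genes that fell, grey for genes that did not pass, and a black line at each list's median. The medians lie between -0.08 and 0.12, and every list but the endothelial one holds calls in both directions.

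Markers of other cell types were read as a check of the labelled cell line, beside all genes, of which 14.1% rose and 16.3% fell. Of 10 fibroblast markers, DCN rose and FAP and LUM fell. The summed log2 values of the list ran from 84.7 to 85.7 in the mimic arrays and from 85.9 to 86.2 in the control arrays. The median difference of the fibroblast list was 0.0548, and only FAP, LUM, PDGFRA and PDGFRB had negative differences. DCN differed by 1.6595, FAP by -1.6044 and LUM by -1.0586 (log2), and DCN rose on 6 of its 7 probe sets. LUM fell at 1 probe set of 2, where its mean signal was above only 4.16% of all probe sets. The other LUM probe set had -0.03 (limma adjusted p = 0.826). Of 8 endothelial markers, KDR fell by 1.48 (log2), and the sums ran from 59.3 to 60.4 in the mimic arrays and from 60.6 to 60.8 in the control arrays. The median difference of the endothelial list was 0.055, and KDR alone of the 8 had a negative difference. One further endothelial marker passed as higher without control replicate 3. Of 6 measured blood cell markers, CD14 fell by 1.15 ± 0.08 and ITGAM rose by 0.21 ± 0.07 (log2, SE). The sums ran from 46.9 to 47.3 in the mimic arrays and from 47.8 to 47.9 in the control arrays. The median difference of the blood cell list was 0.12, and only CD14 and CSF1R (-0.30, not past the threshold) had negative differences. The ITGAM call (limma adjusted p = 0.0483) was lost without mimic replicate 1 (0.107), mimic replicate 2 (0.172), control replicate 1 (0.188) or control replicate 2 (0.121). It was also lost after quantile normalization (0.0603), with arrays centred (0.0763) and without the loess trend (0.134). Trend and robust eBayes (0.0578), the replicate block (0.0728) and averaged probe sets (0.0734) lost it too. In 7 of 17 alternatives, among them the one without mimic replicate 1, 2 blood cell markers fell. The part of other cells in the values of the 10 genes was not tested.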

How the data were processed

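The deposited table holds log2 intensities of 54675 probe sets on 6 arrays, which the authors normalized with RMA, per the submitters' processing notes. Its version is not stated there, and the values (3.67 to 14.95) show the log2 scale. The 62 control probe sets were left out. Genes were named through the platform annotation, which gave 1 symbol for 41091 probe sets, several for 1801 and none here for 11721. Arrays were grouped by their titles. Mimic was compared with control with limma 3.58.1 (lmFit, eBayes without trend) in R 4.3.3, two-sided, adjusted by Benjamini-Hochberg over 54613 probe sets, threshold 0.05. Differences are mimic minus control, errors are limma's moderated standard errors, and intervals are 95%.

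The 10 genes, the 8 related lists and the tests were chosen with earlier results of these data known, so no list is independent evidence. Every member is named, and of each list up to 4 genes past the threshold with the largest differences, those behind counts of 3 or fewer, and the 3 largest differences among family relatives. ESR2 and the 5 basal genes that rose were added after their values were seen. List genes without a value were not analysed here.

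In a simulation of 54613 probe sets of which 200 differed, the fit found 69% at a true difference of 0.5 and 98% at 1 (log2). Of its calls, 1.76% were false. Simulated noise was independent between probe sets, with variances shuffled among them, and in the data 24.8% of probe sets were called. These rates therefore check the fit and do not give the error rate of the reported calls. Alternatives were quantile normalization, median centring, removal of a loess trend (span 0.3), leaving out the 40% dimmest probe sets, trend and robust eBayes, array weights, a block for replicate numbers, omission of each array in turn, other choices of probe set and other thresholds. Motifs were searched with Python 3.11.15.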

Additional observations from a re-analysis of the deposited data

How the results depend on the processing

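Of 149 values of the 10 genes under alternatives, 148 kept their direction and their side of the threshold; the exception was ESR1, which averaged -0.0137 over its probe sets. Requiring 1.5-fold, which leaves fewer by construction, 2 member genes rose and 1 fell, 6 member probe sets rose and 3 fell, and 640 of all genes rose and 1083 fell. Without probe sets of the suffixes x_at and s_at, MLPH had no value. List genes with only such probe sets likewise had none, which also lowers the list counts of that setting. Leaving out any 1 array left 3 member genes higher and 4 lower, and 9 member probe sets higher and 8 lower. Of 290 values of the other member probe sets, an alternative added after seeing the data, 280 stayed, and the 10 that changed sign did not pass on either side. GREB1 at 210562_at was at -0.0225 after quantile normalization, -0.0158 with arrays centred, -0.0223 without the loess trend and from -0.0231 to 0.0409 when 1 array was left out. ESR1 at 215552_s_at was at -0.0029 after quantile normalization and -0.0134 without the loess trend, and ESR1 at 211235_s_at ran from -0.0914 to 0.0499 and AGR2 at 228969_at from -0.0239 to 0.1698 when 1 array was left out. The cause of these changes was not tested. Of 483 values of named list genes, 465 stayed; the others were those of ITGAM, XBP1, PRMT1 and LUM, and ESR2, which did not pass on either side and was at 0.0735 without the suffixes x_at and s_at. Counts over the alternatives ran from 4 to 11 higher and 4 to 12 lower for oestrogen-induced genes, 3 to 5 and 1 to 8 for receptor relatives and coregulators, 1 to 3 and 6 to 13 for luminal, 2 to 5 and 7 to 9 for basal genes, 3 to 7 and 4 to 11 for family relatives, 1 and 0 to 3 for fibroblast, 0 to 1 and 1 for endothelial and 0 to 2 and 1 to 2 for blood cell markers.

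The labels give both groups the same replicate numbers. Deviations from the group means of same-numbered arrays correlated at -0.107, 0.0841 and 0.0817, and mimic replicate 1 correlated best with control replicate 2 (0.120), so the numbers were not taken to pair the arrays. With the replicate block, 3 member genes were higher and 4 lower, 9 member probe sets higher and 8 lower, and 2683 of all genes higher and 3129 lower. Without detection calls, a low signal could not be told from background.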
